A study of Mus musculus with 22 samples.

Results

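Galectins are sugar-binding proteins that recognise beta-galactosides on glycoproteins and glycolipids, both outside the cell and, when a phagosome or lysosome membrane breaks, on the exposed inner face of that membrane. Galectin genes are known for their expression in macrophages and in microglia, the resident macrophages of neural tissue, that take up debris. The genes described here are 5 galectin genes, Lgals1, Lgals3, Lgals4, Lgals8 and Lgals9, and Lgals3bp, which encodes a secreted glycoprotein that galectins bind. The 6 genes were taken from a fixed list of names, out of 35596 genes to which reads were assigned, and each was followed across genotype and uptake of dead neurons. The list was chosen with earlier results of these data known.

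Retinal microglia of 12-week-old mice were profiled by bulk RNA-seq, 24 hours (per the file headers) after an intravitreal injection of apoptotic neurons. The sort kept Ly6c-negative cells with CD11b and Fcrls, and Alexa488 fluorescence divided them into phagocytic and non-phagocytic cells. Each sort had 5 libraries of wild-type mice (C57BL/6) and 6 libraries of Apoe-/- mice, which makes 4 groups. The Apoe-/- mice carry a germline loss of the gene for apolipoprotein E, a lipid carrier, so every cell type lacked it and not microglia alone. All 22 libraries came from injected eyes, so the non-phagocytic cells are cells of an exposed retina that carried no Alexa488 signal and not cells of an untreated one. Each library pooled 5 to 6 retinas of 1 sex and genotype, and the sex of each pool is not in the labels. Values below are per-gene sums of the deposited estimated read counts, scaled to a common library total (CPM) with edgeR's TMM factors, or, where genes are compared with each other, the deposited TPM, which also corrects for transcript length. In bulk samples, fewer cells of a type and less RNA per cell cannot be told apart.

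Depth ran from 1131239 to 3643674 estimated reads per library. Predicted satellite-repeat genes, 12 in number, held 9.13% to 51.7% of these reads, and the 2 highest shares were in the Apoe-/- non-phagocytic libraries of pools 2 (51.7%) and 5 (47.6%). The targeted gene followed the labels: Apoe ranged from 869 to 5145 CPM in wild-type libraries and from 7.02 to 34.9 CPM in Apoe-/- libraries. Microglial marker genes (8 genes, among them P2ry12, Tmem119 and Fcrls) summed to 4802 CPM or more in all libraries, and the ranges of the 4 groups overlapped. Rod photoreceptor genes (7 genes) summed to 933 to 6973 CPM, also with overlap between the groups. Their medians were higher in Apoe-/- than in wild type, 3367 against 1749 CPM in phagocytic and 3275 against 1589 CPM in non-phagocytic libraries. The part of this in the genotype differences was not tested. Genes that mark blood monocytes were present as well although the sort excluded Ly6c-positive cells, and wild-type pool 4 had the highest sums, 3274 CPM in its phagocytic and 3146 CPM in its non-phagocytic library. Below, the single-genotype effects of the sort on Lgals3 and the averaged Lgals1 difference are also given without such libraries.

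The 250 bases upstream of the RefSeq start are shown for Lgals3, Lgals3bp and Lgals9. These 3 members were higher in phagocytic cells when both genotypes were combined. Of the 6 members, 5 had an entry in the RefSeq promoter table (build GRCm38.p6, the same assembly as mm10), and Lgals1 had none. The sequences run 5′ to 3′ on the gene's strand and end 1 base before the start, and capitals mark matches to the motifs named below.
Lgals3, chr14:47373610-47373859, plus strand: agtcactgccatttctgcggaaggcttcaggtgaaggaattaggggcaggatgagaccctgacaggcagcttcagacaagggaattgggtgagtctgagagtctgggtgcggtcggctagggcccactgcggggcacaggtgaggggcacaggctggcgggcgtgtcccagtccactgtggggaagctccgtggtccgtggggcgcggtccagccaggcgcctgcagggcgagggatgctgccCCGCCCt
Lgals3bp, chr11:118401960-118402209, minus strand: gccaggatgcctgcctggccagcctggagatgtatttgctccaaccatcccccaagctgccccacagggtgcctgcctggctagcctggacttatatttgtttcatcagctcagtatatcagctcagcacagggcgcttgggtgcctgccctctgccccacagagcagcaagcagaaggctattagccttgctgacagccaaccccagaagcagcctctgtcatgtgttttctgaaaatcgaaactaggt
Lgals9, chr11:78984925-78985174, minus strand: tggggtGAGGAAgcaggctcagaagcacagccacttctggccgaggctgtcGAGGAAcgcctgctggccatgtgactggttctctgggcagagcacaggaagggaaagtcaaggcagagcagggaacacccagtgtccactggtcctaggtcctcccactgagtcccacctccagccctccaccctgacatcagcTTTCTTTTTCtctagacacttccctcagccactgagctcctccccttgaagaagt

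The 6 motifs searched on both strands were CACGTG (an E-box bound by lysosomal-biogenesis factors), GAAA and GAAA parted by any 2 bases (the core of the interferon-stimulated response element), TGANTCA (AP-1), GAGGAA (the core of the myeloid factor PU.1), GGGCGG (the GC box) and GGGA, any base and TTTCC (NF-kB). The Lgals3 window held 1 GC box on the opposite strand, printed here as CCGCCC, 7 to 2 bases upstream of the start. The Lgals9 window held 2 PU.1 cores, 244 to 239 and 199 to 194 bases upstream, and 1 interferon-response core on the opposite strand, printed here as TTTCTTTTTC, 55 to 46 bases upstream. None of the 6 motifs was found in the Lgals3bp window. Of 32851 RefSeq windows of this length, 32.7% held the GC box, 23.3% the PU.1 core and 2.98% the interferon-response core, so the first 2 are common letters. The E-box was in 6.02%, the AP-1 site in 6.75% and the NF-kB site in 0.356% of windows, and in none of these 3 windows. The leading Lgals3 transcript in these libraries, Lgals3-203, starts 104 bases downstream of the RefSeq start used for the window. For Lgals9 the leading transcript, Lgals9-202, starts 22 bases upstream of it, inside the window. The leading Lgals3bp transcript, Lgals3bp-201, starts 133 bases upstream of it, so part of the window printed for Lgals3bp lies within the annotated transcript.

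Lgals3 separated phagocytic from non-phagocytic microglia in both genotypes. It was 4.86-fold higher in phagocytic than in non-phagocytic wild-type cells and 4.59-fold higher in phagocytic than in non-phagocytic Apoe-/- cells. Lgals9 and Lgals3bp were 1.51-fold and 1.89-fold higher in phagocytic cells when both genotypes were combined. Lgals1 was 2.78-fold lower in Apoe-/- than in wild-type cells when both sorts were combined, a call that was lost without most single libraries. For no member was the difference between the sorts shown to depend on genotype.

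Lgals3 (chr14:47367751-47386160, plus strand) encodes galectin-3, the chimera-type galectin, with a carbohydrate-binding domain joined to a repeat-rich tail through which it forms oligomers. It gathers on damaged lysosomes and phagosomes. In wild-type non-phagocytic libraries its level was 132, 26.9, 48.1, 311 and 110 CPM in pools 1 to 5. In wild-type phagocytic libraries it was 658, 914, 361, 779 and 330 CPM in the same order. Each phagocytic library was above each non-phagocytic library, and the non-phagocytic library of pool 4 came closest, just below the lowest phagocytic value. In Apoe-/- mice the non-phagocytic libraries ranged from 50.9 to 88.7 CPM (median 70.7) and the phagocytic libraries from 164 to 434 CPM (median 341), again with no overlap. The share of all genes that lay apart in this way was not counted.

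The effect of the sort on Lgals3 in wild-type cells was 2.28 ± 0.44 on the log2 scale (estimate ± SE, edgeR's quasi-likelihood test, Benjamini-Hochberg adjusted p = 0.0143). In Apoe-/- cells it was 2.20 ± 0.40 (edgeR, adjusted p = 0.00911). Lgals3 was the only member of the 6 past the threshold of 0.05 in either comparison, where 0.193% of the 12415 genes tested rose in wild type and 0.403% rose in Apoe-/-. Without adjustment, 4 members in wild type and 5 in Apoe-/- had p under 0.05 and were higher in phagocytic cells, against 7.74% and 9.93% of all genes in either direction. The wild-type call was lost when the fit held only the 2 wild-type groups (adjusted p = 0.124), without phagocytic library 2 (0.0536), and without non-phagocytic library 3 (0.0537) or 5 (0.0568). It was kept without wild-type pool 4 in both sorts, at 2.85 ± 0.41 (edgeR, adjusted p = 0.00209). The Apoe-/- call was lost when the non-phagocytic libraries of pools 2 and 5 were both left out (edgeR, adjusted p = 0.0648). With both genotypes combined the effect was 2.24 ± 0.30, or 4.73-fold (edgeR, adjusted p = 5.75e-05), and this call held in each of 12 alternatives and without each of the 22 libraries.

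The difference between genotypes in the effect of the sort on Lgals3 was -0.08 ± 0.57 on the log2 scale. Its 95% confidence interval, -1.26 to 1.09, holds differences of more than 1 log2 unit both ways, so a like effect of the sort was not shown either. The level itself was lower in Apoe-/- cells in both sorts by estimate: -0.92 ± 0.40 in phagocytic cells (edgeR, unadjusted p = 0.0276, adjusted p = 0.717) and -0.84 ± 0.40 in non-phagocytic cells (unadjusted p = 0.0479, adjusted p = 0.999). Neither passed the test, and the libraries of the genotypes overlapped in both sorts. Without single libraries the estimate ran from -1.08 to -0.73 in phagocytic cells and from -1.07 to -0.17 in non-phagocytic cells. The size of the non-phagocytic difference thus depended on single libraries. Of the 5 wild-type non-phagocytic libraries, 3 lay above the highest Apoe-/- one and 2 below the lowest.

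**Figure D1:**
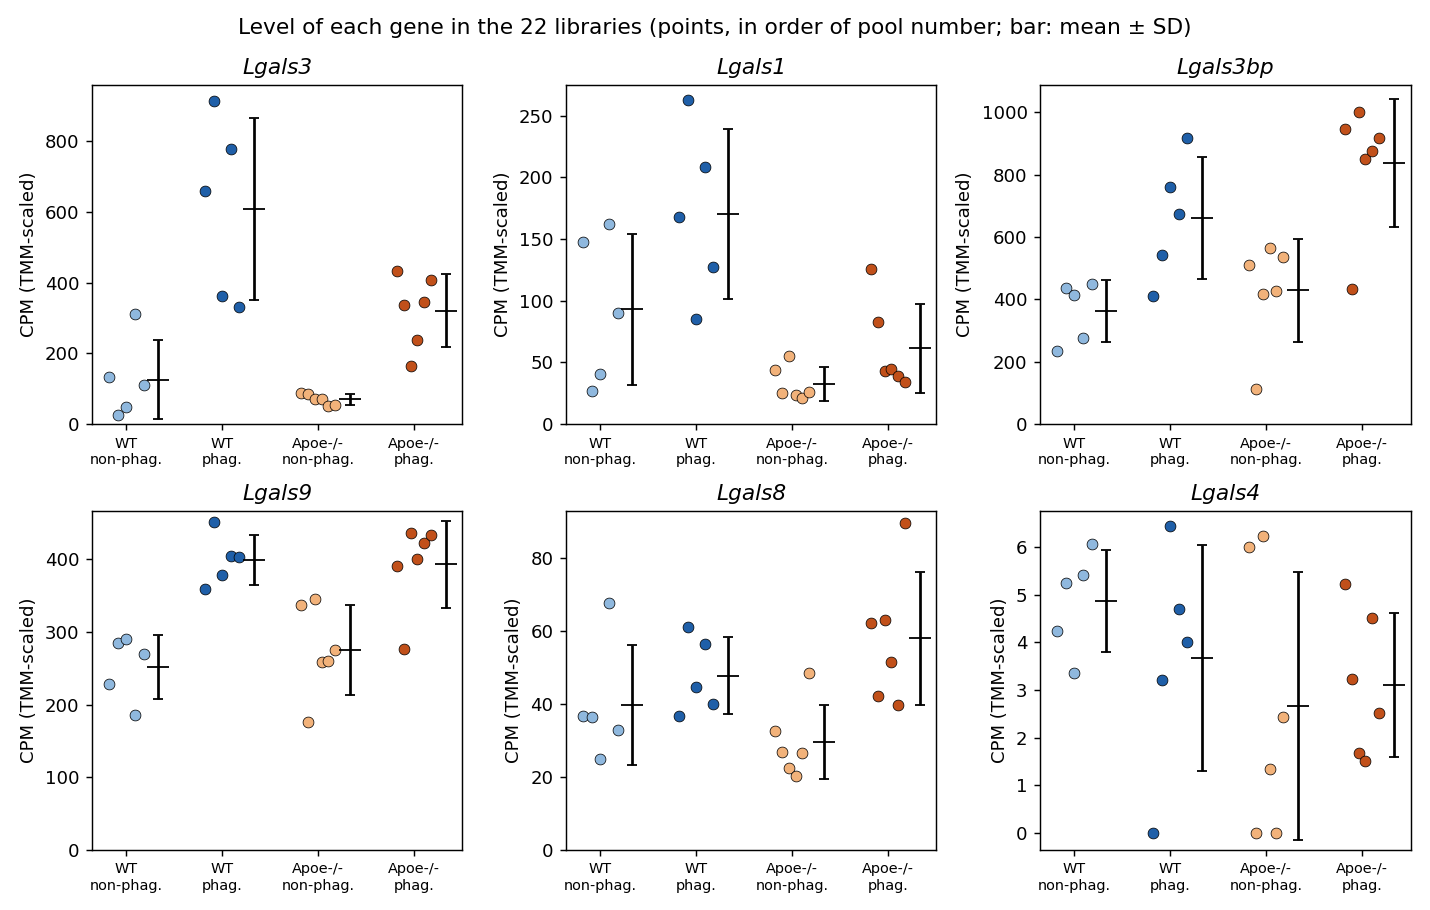
Level of each of the 6 genes in CPM (vertical axis, TMM-scaled, from 0 except for Lgals4, whose axis starts just below 0) in wild-type (WT) and Apoe-/- non-phagocytic and phagocytic libraries. Points are libraries in order of pool number, and bars are the mean ± SD; Lgals3 shows no overlap between the sorts in either genotype, and Lgals4 stays at or below 6.43 CPM.

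Lgals3bp (chr11:118392751-118402092, minus strand) encodes the secreted galectin-3-binding protein, a scavenger-receptor cysteine-rich glycoprotein and not itself a galectin. In wild-type pools 1 to 5 it was 233, 437, 414, 278 and 450 CPM in non-phagocytic libraries. In the phagocytic libraries of those pools it was 410, 543, 760, 674 and 918 CPM. The sorts overlapped through the phagocytic library of pool 1, which lay below 3 of the 5 non-phagocytic libraries. In Apoe-/- mice the non-phagocytic libraries ranged from 113 to 566 CPM (median 469) and the phagocytic ones from 433 to 1001 CPM (median 896). The lowest value of each Apoe-/- sort was the library of pool 2. Its satellite-repeat share was 36.9% in the phagocytic and 51.7% in the non-phagocytic library, and the part of that share in the low values was not tested.

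The effect of the sort on Lgals3bp was 0.87 ± 0.31 (log2, edgeR, adjusted p = 0.415) in wild type and 0.96 ± 0.28 (adjusted p = 0.161) in Apoe-/-. Neither passed the test alone. Combined over genotypes it was 0.91 ± 0.21 (edgeR, adjusted p = 0.0167), with 95% confidence interval 0.48 to 1.35. Genotype differences were 0.34 ± 0.30 in phagocytic cells (adjusted p = 0.855) and 0.24 ± 0.30 in non-phagocytic cells (adjusted p = 0.999), and both estimates were above 0. The combined call was kept without each library in turn and was lost only in limma on the authors' FPKM table (adjusted p = 0.16) among 12 alternatives.

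Lgals9 (chr11:78962974-78984946, minus strand) encodes galectin-9, a tandem-repeat galectin with paired carbohydrate-binding domains, known as a ligand of the receptor encoded by Havcr2. It was 228, 285, 290, 186 and 269 CPM in the wild-type non-phagocytic libraries of pools 1 to 5. In the phagocytic libraries it was 360, 451, 379, 405 and 403 CPM. The wild-type sorts did not overlap, and the spread within each was narrow, but the share of all genes without overlap was not counted. In Apoe-/- mice it ranged from 176 to 345 CPM (median 268) in non-phagocytic and from 276 to 436 CPM (median 411) in phagocytic libraries. There the sorts overlapped through the phagocytic library of pool 2, the lowest of its group.

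The effect of the sort on Lgals9 was 0.67 ± 0.19 (log2, edgeR, adjusted p = 0.173) in wild type and 0.51 ± 0.17 (adjusted p = 0.232) in Apoe-/-. Combined over genotypes it was 0.59 ± 0.13, or 1.51-fold (edgeR, adjusted p = 0.0098). This was the smallest of the 3 combined effects past the threshold and had the smallest SE. The combined effect of the sort thus passed the test for 3 of 6 members, all higher in phagocytic cells, against 1.8% of all genes tested that rose. The members were chosen with earlier results of these data known, so the 2 shares are set side by side as a description only. DESeq2 called 4 members, the fourth being Lgals1, while limma on the FPKM table kept 1 of the 3, Lgals3, and gave an adjusted p of 0.229 for Lgals9. Over all genes the 12 alternatives called 82 to 644, against 293 as reported, so these counts cannot be read against the 1.8%. Genotype made little difference to Lgals9 by estimate, -0.02 ± 0.18 in phagocytic and 0.13 ± 0.18 in non-phagocytic cells.

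Lgals8 (chr13:12439415-12464944, minus strand) encodes galectin-8, another tandem-repeat galectin, which marks damaged vacuoles for autophagy. Wild-type pools 1 to 5 held 36.6, 36.3, 25.0, 67.8 and 32.9 CPM in non-phagocytic and 36.7, 61.1, 44.6, 56.5 and 40.0 CPM in phagocytic libraries. The wild-type sorts overlapped, and the highest wild-type value of all was the non-phagocytic library of pool 4. In Apoe-/- mice the non-phagocytic libraries ranged from 20.3 to 48.5 CPM (median 26.7) and the phagocytic ones from 39.6 to 89.5 CPM (median 56.9). Only 1 Apoe-/- non-phagocytic library, that of pool 6, reached into the phagocytic range.

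The effect of the sort on Lgals8 was 0.27 ± 0.28 (log2, edgeR, adjusted p = 0.914) in wild type and 0.96 ± 0.26 (unadjusted p = 0.00103, adjusted p = 0.115) in Apoe-/-. The difference between these was 0.69 ± 0.38 (edgeR, unadjusted p = 0.082, adjusted p = 1), with 95% confidence interval -0.09 to 1.48. It was the largest genotype difference in the sort's effect among the members, and it did not pass the test. Over all genes tested, the test of that difference called 0 genes in edgeR (percent called: 0), with 301 (2.42%) at an unadjusted p under 0.05, and 0 of the 6 members in edgeR, in DESeq2, in limma and at an unadjusted p under 0.05. Combined over genotypes the sort's effect on Lgals8 was 0.62 ± 0.19 (edgeR, adjusted p = 0.0872).

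Lgals1 (chr15:78926725-78930465, plus strand) encodes galectin-1, the prototype galectin, a small protein with a single carbohydrate-binding domain that acts as a homodimer. In wild-type non-phagocytic libraries it was 147, 26.5, 40.3, 163 and 89.7 CPM in pools 1 to 5, and in phagocytic libraries 168, 263, 84.9, 209 and 127 CPM. Within wild type the non-phagocytic libraries of pools 1, 4 and 5 lay among the phagocytic ones. In Apoe-/- mice it ranged from 21.4 to 55.2 CPM (median 25.4) in non-phagocytic and from 34.3 to 126 CPM (median 43.8) in phagocytic libraries. The genotypes overlapped in both sorts. Among phagocytic cells, 1 of 6 Apoe-/- libraries, that of pool 1, lay above the lowest wild-type library, and among non-phagocytic cells 2 of 5 wild-type libraries, those of pools 2 and 3, lay inside the Apoe-/- range.

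The genotype difference in Lgals1 was -1.45 ± 0.41 (log2, Apoe-/- minus wild type, edgeR, unadjusted p = 0.00141, adjusted p = 0.393) in phagocytic cells. In non-phagocytic cells it was -1.50 ± 0.42 (unadjusted p = 0.00124, adjusted p = 0.999). With 0 of 6 members past the threshold in edgeR and in DESeq2 in either sort, and 2 (Lgals1 and Lgals3) at an unadjusted p under 0.05 in each, the members stood against 0.0322% of genes called in phagocytic and 0.0161% in non-phagocytic cells. At the unadjusted p the shares of all genes were 6.62% and 3.8%. Averaged over the sorts, Lgals1 was lower in Apoe-/- by -1.47 ± 0.29 (edgeR, adjusted p = 0.0468), with 95% confidence interval -2.07 to -0.88. It was the only member of the 6 past the threshold, where 0.0403% of genes tested were lower. Lgals3 averaged over the sorts was -0.88 ± 0.28 (edgeR, unadjusted p = 0.00442, adjusted p = 0.344). Its estimate ran from -1 to -0.55 without single libraries.

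The averaged Lgals1 call lay near the threshold. It was kept in 4 of 12 alternatives, DESeq2 among them (adjusted p = 0.000479), and it was lost without any 1 of 16 of the 22 libraries, with adjusted p from 0.0052 to 0.118 over the 22 omissions. The 6 libraries whose omission kept it were wild-type phagocytic 3 and 5, wild-type non-phagocytic 2 and 3, Apoe-/- phagocytic 1 and Apoe-/- non-phagocytic 3. The estimate stayed between -1.65 and -1.32 over all 22 omissions, so its size moved less than its call. Without wild-type pool 4 in both sorts it was -1.28 ± 0.30 (edgeR, adjusted p = 0.183). Without Apoe-/- non-phagocytic libraries 2 and 5 it was -1.36 ± 0.31 (edgeR, adjusted p = 0.176). The labels do not say whether equally numbered phagocytic and non-phagocytic libraries came from 1 pool, and where they did, an average over the sorts counts that pool more than once. Summed Y-linked reads (Ddx3y and Eif2s3y) were under 3 CPM in 1 of 5 wild-type and 3 of 6 Apoe-/- pools, in both sorts of each. With these reads as a covariate, an alternative chosen after seeing the data, the Lgals1 difference was -1.35 ± 0.27 (edgeR, adjusted p = 0.0694).

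For Lgals1 the effect of the sort was 0.88 ± 0.42 (log2, edgeR, adjusted p = 0.638) in wild type and 0.94 ± 0.40 (adjusted p = 0.416) in Apoe-/-. Combined over genotypes it was 0.91 ± 0.29 (adjusted p = 0.102), which did not pass in edgeR, while DESeq2 gave 0.89 ± 0.29 (adjusted p = 0.045). The effect differed between genotypes by 0.06 ± 0.57, with 95% confidence interval -1.12 to 1.23.

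Lgals4 (chr7:28833854-28841708, plus strand, on the same chromosome as Apoe) encodes galectin-4, a tandem-repeat galectin known mainly from gut epithelium. It was at the edge of detection, with 0 to 19 estimated reads per library. Reads were at 0 in 3 libraries, wild-type phagocytic 1 and Apoe-/- non-phagocytic 2 and 5, and a count of 0 at their depths allows up to 3 reads, or 1.16, 2.49 and 1.86 CPM, for counting error only. The wild-type means were 3.67 ± 2.37 CPM (SD, n = 5) with uptake and 4.86 ± 1.07 CPM (n = 5) without. The Apoe-/- means were 3.11 ± 1.51 CPM (n = 6) with uptake and 2.67 ± 2.82 CPM (n = 6) without. No difference was detectable at this depth. The effect of the sort was -0.41 ± 0.78 (log2, edgeR, adjusted p = 0.969) in wild type and 0.19 ± 0.75 (adjusted p = 0.975) in Apoe-/-. The gut epithelial genes Epcam, Krt20, Vil1 and Cdx1 together reached at most 6.76 CPM in any library.

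**Figure D2:**
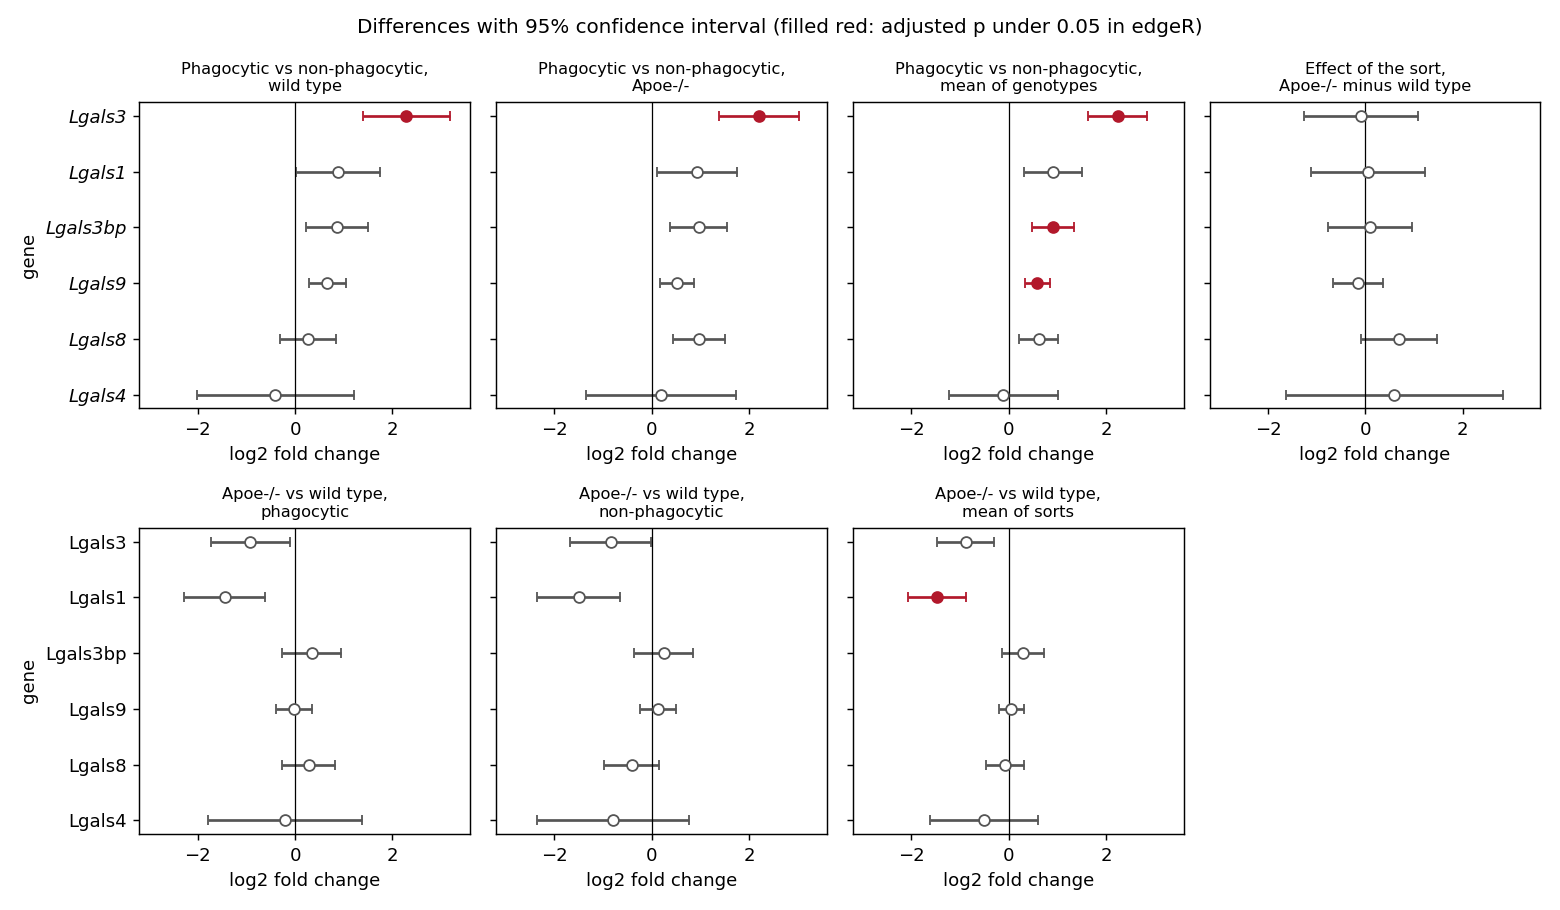
Log2 fold change of each gene (points, horizontal axis) with its 95% confidence interval in the 7 comparisons, from 1 edgeR fit over 22 libraries. Filled red points mark an adjusted p under 0.05: Lgals3 in both genotypes, Lgals3, Lgals3bp and Lgals9 in the mean of genotypes, and Lgals1 in the genotype difference averaged over sorts, where its interval runs from -2.07 to -0.88.

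Per length, the order of the members by mean differed between the groups. In wild-type phagocytic cells Lgals3 led at 629 ± 279 TPM (SD, n = 5), followed by Lgals3bp at 291 ± 82.7, Lgals1 at 285 ± 112, Lgals9 at 277 ± 33, Lgals8 at 27 ± 5.52 and Lgals4 at 4.6 ± 3.7. Lgals3bp, Lgals1 and Lgals9 did not differ beyond their spread, and the lowest Lgals3 library (332 TPM) lay inside the Lgals3bp range. In Apoe-/- phagocytic cells the order was Lgals3bp at 341 ± 125 TPM (SD, n = 6), Lgals3 at 275 ± 82.7, Lgals9 at 244 ± 71.3, Lgals1 at 93.2 ± 53.3, Lgals8 at 28.3 ± 5.96 and Lgals4 at 5.87 ± 5.51. There the first 3 did not differ beyond their spread.

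Non-phagocytic cells had another order. In wild type it was Lgals9 at 188 ± 79.0 TPM, Lgals3bp at 178 ± 81.1, Lgals1 at 140 ± 72.2 and Lgals3 at 118 ± 91.5 (SD, n = 5), none apart from its neighbours beyond their spread. In Apoe-/- it was Lgals3bp at 178 ± 92.7 TPM, Lgals9 at 170 ± 79.4, Lgals3 at 60.9 ± 27.1 and Lgals1 at 49.95 ± 30.9 (SD, n = 6). Lgals8 and Lgals4 came last in both. These are descriptions of level, and the order between genes was not tested.

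**Figure D3:**
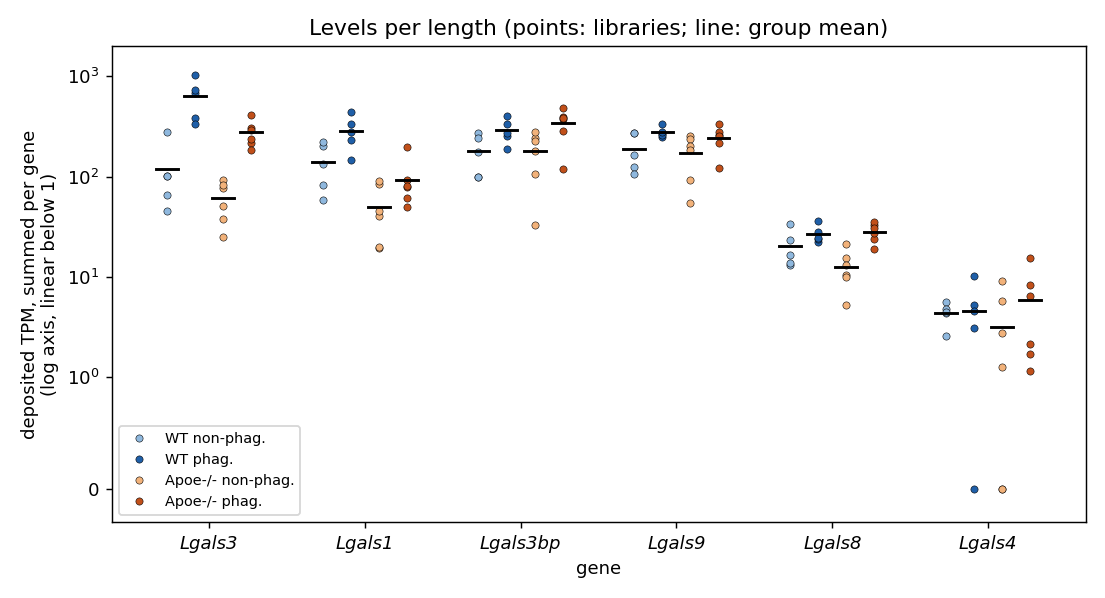
Deposited TPM summed per gene (vertical axis, logarithmic above 1 and linear below) for each of the 6 genes and 22 libraries, with the line at the group mean. Lgals3, at 629 TPM on average in wild-type phagocytic cells, had the widest distance between sorts, and Lgals8 and Lgals4 had the lowest means in all groups.

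Within each gene, 1 annotated transcript held most of the TPM for 3 members. Lgals3-203, a protein-coding transcript, held 83.8% ± 3.07 (SD) of Lgals3 TPM in phagocytic and 77.4% ± 4.73 in non-phagocytic wild-type libraries. In Apoe-/- libraries it held 84.4% ± 2.95 with uptake and 72.9% ± 10.3 without. The protein-coding Lgals9-202 held 96.1% to 99.1% of Lgals9 TPM by group mean, with 93.0% in the lowest library. Lgals3bp-201 held 88.1% ± 17.5 of Lgals3bp TPM in Apoe-/- non-phagocytic libraries, with 54.0% in the lowest, and 92.3% to 96.3% by mean in the other groups. Lgals1 was divided between the protein-coding Lgals1-201 and Lgals1-202, which is annotated as a target of nonsense-mediated decay. Lgals1-201 held 63.4% ± 14.5 in wild-type phagocytic and 49.5% ± 30.5 in Apoe-/- phagocytic libraries, a spread that leaves the groups indistinct. Lgals8 reads were spread over several of 10 transcripts, and the retained-intron transcript Lgals8-204 held 38.4% ± 5.18 of its TPM in Apoe-/- non-phagocytic and 17.8% ± 10.4 in Apoe-/- phagocytic libraries. In wild type it held 28.4% ± 22.1 in non-phagocytic and 19.7% ± 29.1 in phagocytic libraries, a spread that leaves those sorts indistinct. Salmon shares reads among overlapping transcripts, so these shares are estimates, and no test was run on them.

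The rest of the galectin family gave little signal. Lgals2 had 0 reads in all 22 libraries, which allows up to 2.67 CPM in the shallowest of them. Lgals7, Lgals12 and Grifin had at most 5, 7.1 and 3 estimated reads in any library. Lgalsl, a galectin-related gene, was the only one of these abundant enough to test, and its effects of the sort were 0.04 ± 0.58 (log2, edgeR, adjusted p = 0.996) in wild type and -0.88 ± 0.53 (adjusted p = 0.631) in Apoe-/-.

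Among 16 genes for glycoproteins that galectins are known to bind, Lamp1 alone passed edgeR's test of the sort, in each genotype and combined. Of all genes tested, 0.193% in wild type, 0.403% in Apoe-/- and 1.8% combined passed and were higher in phagocytic cells. Lamp1 encodes the main glycoprotein of the lysosome membrane. It averaged 515 ± 120 CPM (SD, n = 5) in wild-type phagocytic against 204 ± 24.9 (n = 5) in wild-type non-phagocytic libraries, and 360 ± 134 (n = 6) against 181 ± 22.5 (n = 6) in Apoe-/-. The effect of the sort was 1.33 ± 0.23 (log2, edgeR, adjusted p = 0.00694) in wild type and 0.99 ± 0.21 (adjusted p = 0.0218) in Apoe-/-. Cd44, a hyaluronan receptor, had an estimate of 1.15 ± 0.32 combined over genotypes and missed the threshold (adjusted p = 0.0522). DESeq2 called 1 of the 16 in each genotype and 2 combined, and limma on the FPKM table called 1 in wild type, 0 in Apoe-/- and 1 combined. Fn1 (fibronectin), P4hb, Itgam and Slc3a2 were the most abundant others, and none passed in the combined test, with estimates from 0.23 for Slc3a2 to 0.35 for Itgam. Itgam encodes CD11b, which the sort selected for. The median effect of the sort over the 16 genes was 0.20 in wild type and 0.19 in Apoe-/-, against -0.01 and -0.02 over all genes tested. None of the 16 passed in a genotype comparison in edgeR or DESeq2, with 3 at an unadjusted p under 0.05 in phagocytic cells, 0 in non-phagocytic cells and 4 in the average. At that p the shares of all genes were 6.62% in phagocytic and 3.8% in non-phagocytic cells, and none is given for the average.

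Genes that act at damaged lysosomes, downstream of galectins or beside them, numbered 22, of which 20 could be tested. None passed within a single genotype in edgeR, where 5 in wild type and 3 in Apoe-/- had an unadjusted p under 0.05, all higher in phagocytic cells, and DESeq2 called 2 and 1. At that unadjusted p the shares of all genes, in either direction, were 7.74% in wild type and 9.93% in Apoe-/-. Combined over genotypes 3 of 20 rose, against the same 1.8% of all genes, for a list also chosen with earlier results of these data known. They were Sqstm1, the autophagy receptor p62, at 0.85 ± 0.14 (log2, edgeR, adjusted p = 0.000876), Gabarap, an autophagosome protein, at 0.73 ± 0.15 (adjusted p = 0.00761), and Vcp, an ATPase that clears damaged lysosomes, at 0.43 ± 0.11 (adjusted p = 0.0292). Map1lc3b, which encodes another autophagosome protein, was at -0.14 ± 0.14 (adjusted p = 0.734). The list's median was 0.21 against -0.02 over all genes.

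Genes that act in the branching, galactosylation and sialylation of glycans, and so in making the sugars galectins can bind, numbered 14. Most encode enzymes of N-glycans, and the list also holds Gcnt1, which branches O-glycans, and Slc35a2, the transporter of UDP-galactose. None passed in any of the 7 comparisons in edgeR, and between 0 and 3 had an unadjusted p under 0.05 in each. Outside the averaged comparisons, the share of all genes at that p ran from 2.42% to 9.93%. DESeq2 called 1, in the genotype difference averaged over sorts. St3gal4, a sialyltransferase named here after its values were seen, had the estimate -1.13 ± 0.29 there (edgeR, unadjusted p = 0.000594, adjusted p = 0.189). The median genotype difference over the 14 genes was -0.26 in phagocytic and -0.19 in non-phagocytic cells, against -0.004 and -0.002 over all genes tested.

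Monocyte marker sums had lower medians in Apoe-/- than in wild-type libraries of both sorts, as had Lgals1 and Lgals3. The 7 markers (Ly6c2, Ccr2, Plac8, Chil3, Vcan, Fn1 and S100a4) summed to 1041 to 3274 CPM in wild-type phagocytic and 364 to 1199 CPM in Apoe-/- phagocytic libraries, with medians of 1618 and 752 CPM. In non-phagocytic cells the sums were 626 to 3146 CPM in wild type and 483 to 1204 CPM in Apoe-/-, with medians of 946 and 858 CPM. Fn1 made up a large part of the sums, with a mean of 1407 CPM in wild-type phagocytic and 584 CPM in Apoe-/- phagocytic libraries. Ly6c2 averaged 24.7 and 15.5 CPM in wild-type phagocytic and non-phagocytic libraries, and 4.74 and 4.52 CPM in the Apoe-/- ones. Its highest wild-type libraries held 72.7 and 55.8 CPM. By median it was 7.99 and 4.33 CPM in wild type against 4.02 and 4.54 CPM in Apoe-/-, so the non-phagocytic medians were alike. Ccr2 averaged 154 and 179 CPM in wild type against 44.2 and 81.4 CPM in Apoe-/-, with medians of 147 and 153 against 37.3 and 80.1 CPM. Chil3 and S100a4 also had lower medians in Apoe-/- in both sorts. Other markers did not follow. Plac8 medians were 34.2 and 69.8 CPM in wild type against 34.5 and 67.1 CPM in Apoe-/-. In non-phagocytic cells the Fn1 medians were 602 and 586 CPM, and Vcan was higher in Apoe-/- by median (5.74 against 2.82 CPM). No marker was at 0 in all libraries of a group. The part of these cells in the Lgals1 and Lgals3 values was not tested.

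**Figure D4:**
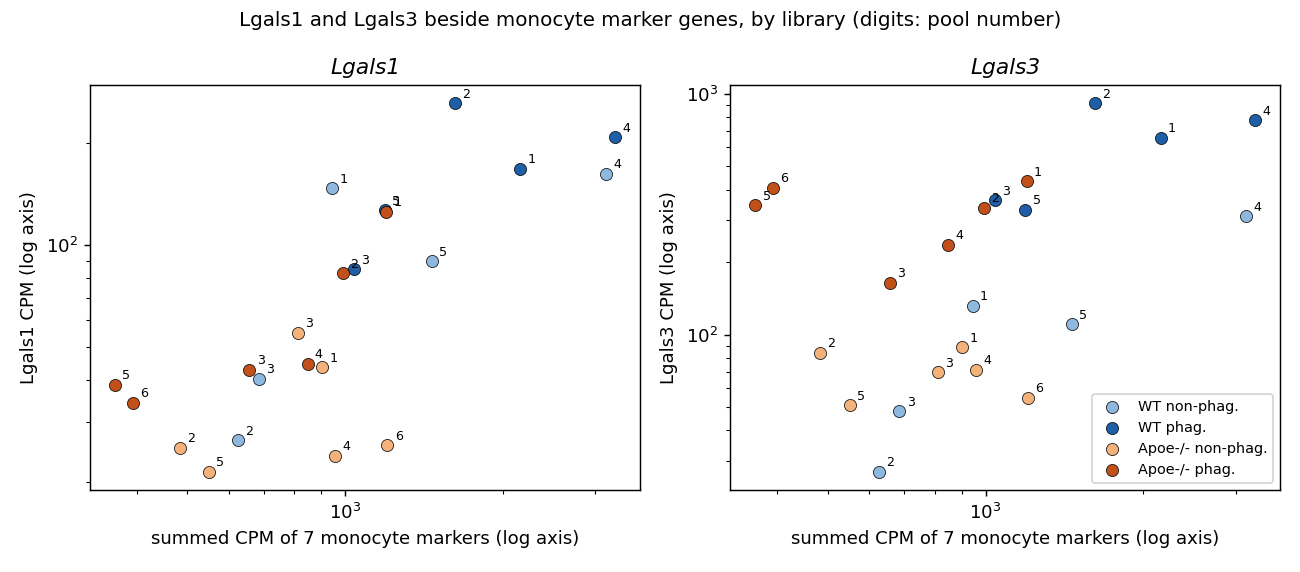
Lgals1 (left) and Lgals3 (right) in CPM on the vertical axis against the summed CPM of 7 monocyte markers on the horizontal axis, both logarithmic, 1 point per library with its pool number. The libraries with the highest marker sums, 3274 and 3146 CPM, are both of wild-type pool 4. The part of monocytes in the Lgals1 and Lgals3 values was not tested.

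Border macrophage marker sums were apart between the sorts. The 10 markers (among them Mrc1, Cd163, Pf4 and F13a1) summed to 523 to 994 CPM in wild-type phagocytic against 263 to 377 CPM in wild-type non-phagocytic libraries. In Apoe-/- the sums were 421 to 1079 CPM against 215 to 360 CPM, again without overlap. Stab1 made up a large part of the sums, with means of 390 against 237 CPM in wild type and 523 against 230 CPM in Apoe-/-. Clec10a, named after its values were seen, went the other way. Its means were 8.32 against 37.4 CPM in wild type and 5.95 against 16.5 CPM in Apoe-/-. Pf4 rose by 3.37 ± 0.61 (log2, edgeR, adjusted p = 0.0113) in wild type and 3.29 ± 0.59 (adjusted p = 0.00817) in Apoe-/-, and F13a1 rose by 2.47 ± 0.51 (adjusted p = 0.0309) and 2.76 ± 0.50 (adjusted p = 0.00911). No marker of this list was at 0 in all libraries of a group. Dendritic cell marker sums (7 genes) had lower medians in phagocytic libraries, 42.9 CPM in phagocytic against 163 CPM in non-phagocytic wild-type libraries and 48.2 against 134 CPM in Apoe-/-, and their ranges overlapped in both genotypes. The part of border macrophages and dendritic cells in the higher Lgals3, Lgals3bp and Lgals9 values was not tested.

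By rank correlation of log2 CPM over the 22 libraries, the genes most like Lgals3 were Anxa5, F10 and Ftl1 (Spearman's rho 0.914 each), Cstb (0.909) and F13a1 (0.896). Anxa5 encodes a phosphatidylserine-binding annexin, Ftl1 the ferritin light chain and Cstb the cathepsin inhibitor cystatin B. Those most like Lgals1 were Ecm1 (0.934), Capg (0.904), Ldha (0.897), Arpc5 (0.869) and Sh3bgrl3 (0.860), of which Capg and Arpc5 act on actin. For Lgals3bp they were Pik3ap1 (0.885), Fcgr4 (0.884), Adgre1 (0.877) and Grn (0.871). For Lgals9 they were Glmp (0.939), Tmbim6 (0.912), Grn (0.911), Ctsz (0.906) and B2m (0.901), so that Grn, the gene of the lysosomal protein progranulin, stood on both lists. For Lgals8 they were Atp6v1b2 (0.831), Lypla1 (0.800), Washc5 (0.783), Fcgr2b (0.774) and Idh1 (0.767). For Lgals4, at its few reads, Qsox2 (0.826) led. These correlations were taken over libraries that share group and depth, and they describe likeness of level only.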

How the data were processed

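The authors deposited, per the file headers, an estimated count and a TPM per transcript (116248 transcripts) in each of 22 SMART-Seq2 libraries, and a gene table of FPKM values that, per its header, keeps genes above an FPKM of 5. Salmon 1.4.0, R 4.0.3, DESeq2 1.30.1 and mm10 are named without roles, per the submitters' processing notes. For trimming, strand setting and annotation the sources used here give nothing. Transcripts were matched to GENCODE M21 (GRCm38): 116072 matched, and 176, holding 0.118% to 0.262% of reads, did not and were left out.

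Counts were summed per gene, rounded and fitted with edgeR 4.0.16 (R 4.3.3): TMM, filterByExpr by group (minimum count 10), 1 quasi-likelihood fit of 4 groups over 22 libraries, common biological coefficient of variation 0.426. Of 35596 genes 12415 were tested, all 6 members among them. Benjamini-Hochberg adjustment ran over all genes tested within each of 7 comparisons, with a threshold of 0.05. P-values measure the spread between libraries of a group, and the fit takes all 22 as independent. Where equal numbers mark 1 pool, an average over the sorts counts that pool more than once. A comparison of the sorts then leaves the pairing unused. DESeq2 1.42.0 and limma 3.58.1 on log2(FPKM + 1), whose fold changes understate those of low genes, were alternatives, and the FPKM values were used nowhere else. Shares of all genes called are from edgeR only, so counts called by DESeq2 or limma have no share beside them. Correlations used log2 CPM with a prior count of 2. The fitting script was checked on simulated data.

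The members and gene lists were chosen with earlier results of these data known. The genes named are all 6 members, the 5 genes most correlated with each, and of each other list those past the threshold and up to 4 of the highest mean CPM; any other is said to be named after its values were seen. Among the correlated genes and the monocyte markers, 2 genes are not reported here, and the monocyte sums hold the 7 others.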

Additional observations from a re-analysis of the deposited data

Results flagged for a closer look

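Of 24 group values of the members, each over 5 or 6 libraries, 4 held a library far from the others by Dixon's test, which flags about 1 in 20 groups by chance. Of these, 3 were of Apoe-/- pool 2. Its Lgals3bp level was the lowest of the phagocytic group at 433 CPM (next lowest 850) and the lowest of the non-phagocytic group at 113 CPM (next lowest 418). Its Lgals9 level was the lowest of the phagocytic group at 276 CPM (next lowest 391). The satellite-repeat share of this pool was 36.9% in the phagocytic and 51.7% in the non-phagocytic library, the highest of each group. Its neutrophil marker sums (6 genes) were the highest of each group as well, 175 CPM and 441 CPM. The other was Lgals8 in the wild-type non-phagocytic library of pool 4, the highest of its group at 67.8 CPM (next highest 36.6), in the library with the highest monocyte, dendritic cell (509.6 CPM) and neutrophil (357 CPM) marker sums of its group. The part of any of these in these values was not tested.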

How the results depend on the processing

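Each comparison was recomputed under up to 13 alternatives and without each library of its groups. Of the effects of the sort, 3 members passed in the mean of genotypes, 5 with the replicate block (Lgals1 at adjusted p = 0.031 and Lgals8 at 0.015 were added), 1 in limma on FPKM, and 3 to 5 without single libraries (5 without wild-type non-phagocytic 4). In wild type 1 member passed, 2 in DESeq2, 3 with the replicate block (Lgals3bp at 0.022 and Lgals9 at 0.0254 added), 0 with only the groups compared and 0 to 1 without single libraries. In Apoe-/- 1 passed, 3 in DESeq2, 2 without a filter, 4 with the block (Lgals3bp at 0.00128, Lgals8 at 0.015 and Lgals9 at 0.0474 added) and 0 without non-phagocytic libraries 2 and 5. Of the genotype differences, 1 member passed in the mean of sorts, 2 without a filter, and 0 with a stricter filter (minimum count 30), length-scaled counts, the satellite share or Y-linked reads as a covariate, the block, limma, without wild-type pool 4 and without Apoe-/- non-phagocytic 2 and 5, and 0 to 1 without single libraries. Without a filter 1 passed (Lgals1) in phagocytic and 1 in non-phagocytic cells, against 0. The labels do not say that equal pool numbers mark 1 pool, and the numbers missed the rule for pairing, a correlation over 0.1 in each pair: correlations of the deviations ran from 0.040 to 0.423 and were over 0.1 in 8 of 11 pairs, and a library matched its own number best in 2 of 5 wild-type and 5 of 6 Apoe-/- pools.

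Directions changed only for differences that did not pass the test as reported (log2). The sort's difference between genotypes for Lgals1 (0.06) was -0.17 with the block, -0.14 in limma, -0.17 without wild-type pool 4, -0.13 without Apoe-/- non-phagocytic 2 and 5, -0.022 with Y-linked reads and -0.31 to 0.28 without single libraries. That for Lgals3 (-0.08) was -0.75 to 0.14, and that for Lgals3bp (0.10) was -0.10 to 0.24 without single libraries and -0.14 without Apoe-/- non-phagocytic 2 and 5. Genotype differences turned for Lgals3bp in non-phagocytic cells (0.24 as reported, -0.011 in limma), for Lgals8 in the mean of sorts (-0.068 as reported, 0.10 without wild-type pool 4, -0.17 to 0.068 without single libraries) and for Lgals9 (0.053 as reported and -0.10 in limma in the mean, 0.13 and -0.082 in non-phagocytic cells; in phagocytic cells -0.024 as reported, 0.00558 with the stricter filter, 0.11 with the satellite covariate and -0.063 to 0.061 without single libraries). Lgals4 turned in the genotype mean (-0.51 as reported, 0.047 length-scaled), in phagocytic cells (-0.21 as reported, 0.58 length-scaled, 0.23 with the satellite covariate, 0.38 in limma, -0.53 to 0.084 without single libraries), and for the sort in the mean (-0.11 as reported, 0.60 length-scaled, 0.34 in limma, -0.25 to 0.11), in Apoe-/- (0.19 as reported, -0.34 without non-phagocytic 2 and 5, -0.068 to 0.62) and in wild type (-0.41 as reported, 0.071 length-scaled). The cause was not tested. Lgals4 had 0 to 19 reads per library. Over all genes, counts called ranged from 18 to 135 for the sort in wild type (26 as reported), 16 to 255 in Apoe-/- (58), 82 to 644 combined (293), 2 to 96 for genotype in phagocytic cells (4), 2 to 16 in non-phagocytic cells (2), 4 to 192 averaged (7) and 0 to 17 for the difference (0). The averages and the difference use all 4 groups, so no fit of fewer groups was run there, and Lgals4 was not tested under the stricter filter.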
